A study of Mus musculus with 2 samples.

Results

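BMP ligands, the Id genes and a group of BMP inhibitors were compared between mouse epiblast stem cells of 2 origins. The group held 10 genes, given by name: the ligands Bmp2, Bmp4 and Bmp7, the transcriptional targets Id1, Id2, Id3 and Id4, and the inhibitors Smad6, Nog and Bambi. They were 10 of 34638 gene names on the array and were found through the gene name printed beside each probe in the scanner files. Together they had 11 probes, 2 for Bmp4 and 1 for each of the other genes.

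Both cultures were started from 1 line of mouse embryonic stem (ES) cells, E14Tg2A (strain 129/Ola), kept in 10% serum and 1000 U/mL LIF. In EpiSC, ES cells were given FGF2 (12 ng/mL) and Activin A (20 ng/mL) directly, in a defined N2/B27 medium without vitamin A. In ELA-EpiSC, the same factors in the same medium were given to Epiblast-Like Aggregates (ELA), clusters formed by ES cells once LIF and serum are taken away. No BMP ligand or BMP inhibitor is named among the factors added to either culture, and the length of culture is not given in the labels. Each group was 1 array hybridized with RNA pooled from 3 experiments, so the comparison had no replicate and no p-value. The groups follow the sample titles, although the source fields disagree with them: Argonaute-bound RNA is named there for EpiSC and total RNA for ELA-EpiSC, each from cells before differentiation.

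Bone morphogenetic proteins (BMPs) are secreted dimers that bind pairs of serine/threonine kinase receptors, which phosphorylate Smad1, Smad5 and Smad9. These enter the nucleus with Smad4 and act on target genes, among which the Id genes are the best known in stem cells. Id proteins carry a helix-loop-helix domain with no DNA-binding region, so they pair with E proteins (Tcf3, Tcf4 and Tcf12) and keep them from DNA. In mouse ES cells BMP4 acts with LIF to hold back neural differentiation, and in the embryo at the epiblast stage BMP4 is made by the extra-embryonic ectoderm and BMP2 by the visceral endoderm.

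Id1, Id2 and Id3 were lower in ELA-EpiSC than in EpiSC, by 3.33- to 4.43-fold, and Smad6 was lower by 2.48-fold. Bmp4 was higher in ELA-EpiSC by 3.41-fold on 1 of its 2 probes, the other being undetected on both arrays. Bmp2 and Bmp7 differed by less than 1.5-fold. Thus the ligand that differed most and the Id genes lay on opposite sides. Of the inhibitors, Nog was higher in ELA-EpiSC by 1.55-fold and Bambi did not rise well above background in either culture. Levels and differences below are log2 intensity after background correction and quantile normalization, and a difference is always ELA-EpiSC minus EpiSC.

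**Figure D1:**
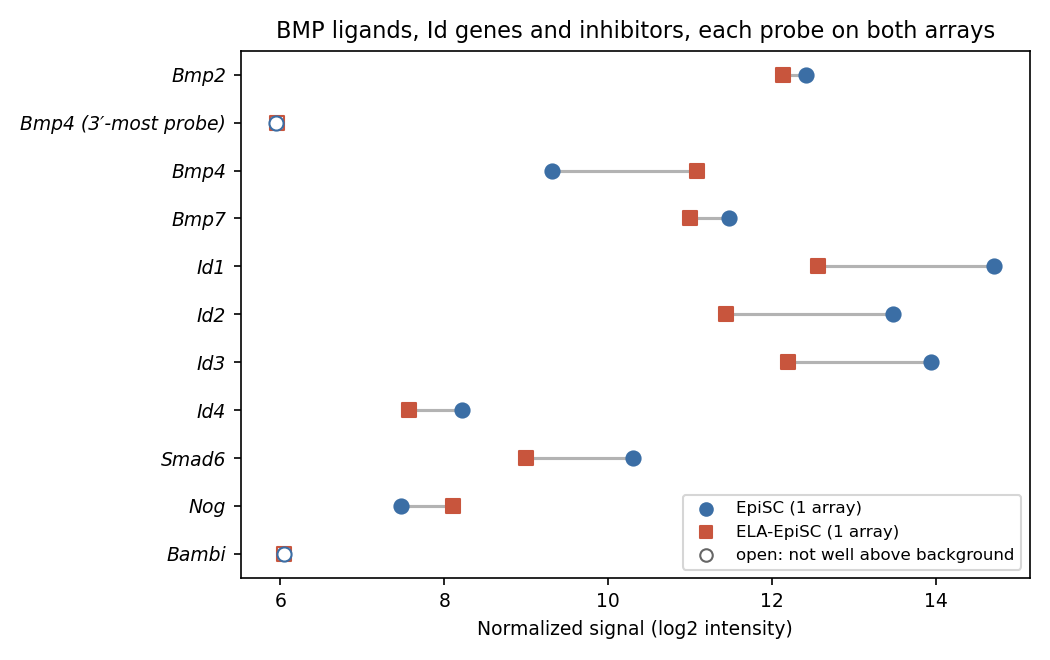
Normalized signal (x axis, log2 intensity) of each of the 11 probes (y axis) on the EpiSC array (circles) and the ELA-EpiSC array (squares), with open symbols for probes not well above background. Each point is 1 array, so there is no error bar, and points may be compared within a row but not between rows. The squares of Id1, Id2, Id3 and Smad6 lie left of their circles, and the square of Bmp4 lies right of its circle by 1.77.

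The arrays were closely alike as a whole. Both were read from 1 slide in 1 scan. Of 55681 probes, 36677 were well above background in EpiSC and 36208 in ELA-EpiSC, and 0 spots were saturated. Over 16649 genes with a mean level of at least 7.5, levels correlated across genes at r = 0.97, and the central 95% of the differences lay between -1.32 and 1.37. Probes printed repeatedly gave the measure of technical error: over 234 probes the SD of a difference between spot pairs was 0.10, and in the 4 classes of level it was 0.10 to 0.11. It holds the noise of spots alone, without that of labelling or culture. All 10 listed epiblast markers were above the minimum level on the arrays. Of these, 3 were higher in ELA-EpiSC past 1 (Nodal by 1.49, Zic2 by 1.68 and Pou3f1 by 1.46), and 0 were lower past 1 on the brightest probe. Dnmt3b had 3 detected probes, with -0.84 on the brightest and -1.11 on the lowest. Markers of visceral endoderm were lower in ELA-EpiSC by more than 1 in 6 of 9 genes counted (Ttr, Hnf4a, Amn, Gata4, Rbp4 and Ambp). Over the 12 detected genes of that list, dim ones included, the summed intensity was 48849 in EpiSC and 14882 in ELA-EpiSC. Markers of trophoblast and extra-embryonic ectoderm were lower by more than 1 in 3 of 5 genes (Elf5, Gata3 and Ascl2), and Tpbpa was not well above background. The sums over the 8 detected genes of this list were 16764 in EpiSC and 3973 in ELA-EpiSC. Past 1, primitive streak and mesoderm markers were higher in ELA-EpiSC in 3 of 8 genes (T by 2.48, Mixl1 by 1.97 and Pdgfra by 1.77). In 1 they were lower (Mesp1, -1.66). Neural markers were higher in 1 of 8 (Nes, 2.11) and lower in 1 (Rax, -5.96). Fibroblast markers were higher in 1 of 4 (Col1a1, 3.72). In pooled RNA, fewer cells of a type and less RNA per cell cannot be told apart.

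A difference of 1 on the log2 scale, with a mean level of at least 7.5, was the size used to count genes, after the methods of the study. There it was applied to ES cells against ELA and joined to a corrected p-value, which 1 array per group cannot give. Of the 9 genes of the group that could be counted, 1 was higher in ELA-EpiSC and 4 were higher in EpiSC past that size. Among all 16649 genes, 4.54% passed it upward in ELA-EpiSC and 4.46% in EpiSC. At 1.5-fold the counts were 2 and 5 of 9, where 11.1% and 10.9% of all genes passed. At a difference of 2 they were 0 and 2 of 9, against 0.907% and 1.02% of all genes. The median of the 9 differences was -0.65, and that of all genes was 0.00. Of the 9, 7 were below 0, as were 49.8% of all genes.

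**Figure D2:**
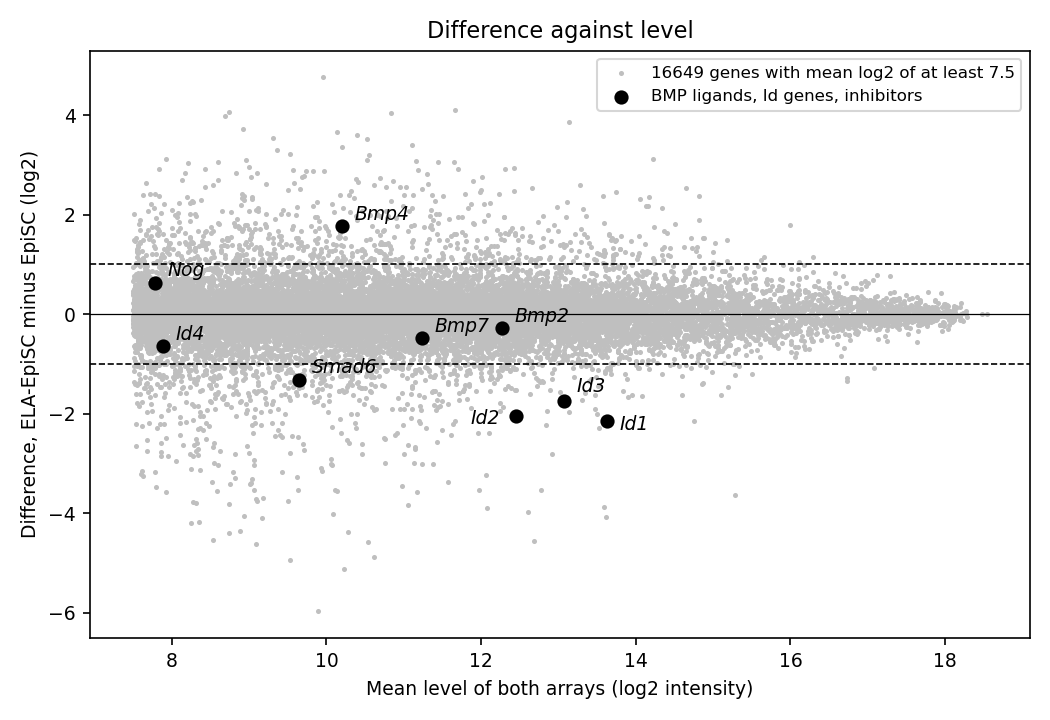
Difference between the arrays (y axis, log2, ELA-EpiSC minus EpiSC) against the mean level of both arrays (x axis, log2 intensity) for 16649 genes (grey) and the 9 countable genes of the group (black), with dashed lines at 1 and -1. Id1, Id2 and Id3 lie at levels above 12, where most genes lie close to 0, and Bmp4 is the only black point above 1.

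The promoter sequences of the genes that differed past 1 are shown because Smad proteins can bind short DNA motifs. Bases further upstream than the windows given here were not searched. RefSeq entries (GRCm38.p6) were matched for Bmp4, Id2, Id3, Id4 and Smad6 of the 10 genes, and none was matched for Bmp2, Bmp7, Id1, Nog and Bambi. The 250 bases before the annotated start are printed 5′ to 3′ on the strand of the gene. Capitals mark GGCGCC, a GC-rich motif of BMP-responsive Smads, and GTCT or its complement AGAC, the Smad box, which do not overlap each other in their letters. They cover chr12:25096093-25096342 for Id2 (minus strand), chr4:136143572-136143821 for Id3 (plus strand), chr9:64022060-64022309 for Smad6 (minus strand) and chr14:46390670-46390919 for Bmp4 (minus strand).
Id2: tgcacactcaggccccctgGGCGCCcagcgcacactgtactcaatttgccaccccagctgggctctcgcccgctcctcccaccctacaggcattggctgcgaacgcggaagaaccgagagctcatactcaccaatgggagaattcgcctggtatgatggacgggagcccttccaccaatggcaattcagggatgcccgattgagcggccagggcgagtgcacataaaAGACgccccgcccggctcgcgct
Id3: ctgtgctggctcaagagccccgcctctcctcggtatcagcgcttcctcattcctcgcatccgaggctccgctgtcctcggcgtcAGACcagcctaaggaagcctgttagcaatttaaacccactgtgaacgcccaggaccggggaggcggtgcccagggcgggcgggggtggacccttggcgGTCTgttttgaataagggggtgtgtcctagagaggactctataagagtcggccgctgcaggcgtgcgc
Smad6: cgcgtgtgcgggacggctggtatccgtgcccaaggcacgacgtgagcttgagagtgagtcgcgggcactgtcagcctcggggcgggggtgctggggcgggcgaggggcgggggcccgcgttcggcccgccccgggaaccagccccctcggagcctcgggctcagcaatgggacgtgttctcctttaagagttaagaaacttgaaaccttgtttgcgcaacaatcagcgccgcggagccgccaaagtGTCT
Bmp4: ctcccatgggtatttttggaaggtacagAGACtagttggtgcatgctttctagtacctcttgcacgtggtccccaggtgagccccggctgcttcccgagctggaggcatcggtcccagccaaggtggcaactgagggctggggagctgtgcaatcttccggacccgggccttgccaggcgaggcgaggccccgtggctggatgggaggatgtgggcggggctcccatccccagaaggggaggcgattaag

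GGCGCC occurred 1 time in the Id2 window, 1 time in that of Id4 and 0 times in those of Id3, Smad6 and Bmp4. Over 32851 promoter windows of the same length, 9.59% held it. GTCT, on either strand, occurred 2 times for Id3, 1 time each for Id2, Smad6 and Bmp4 and 0 times for Id4. Of all windows, 82.9% held at least 1, and the median window held 2, so none of these windows exceeded the median. Id2 held both motifs, as did 7.06% of all windows. The GTCT at the end of the Smad6 window begins GTCTAGAC, the palindrome that joins a pair of Smad boxes, with its first base 4 bases before the annotated start. In windows of 300 bases that include 50 bases past the start, this palindrome was found in 70 of 32851 (0.213%), and it was searched after the Smad6 sequence had been seen. These matches describe letters and say nothing of Smad binding in these cells. The windows of Id2 (62.8% G and C), Id3 (62.8%), Smad6 (66.8%), Bmp4 (63.2%) and Id4 (75.6%) were all richer in G and C than the median window (52.4%).

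Bmp4, the ligand best known for acting on ES cells and for patterning the epiblast, was read by 2 probes. On the brighter one the spot signal before any correction was 545 intensity units (SD over pixels 104) in EpiSC and 2360 (SD 390.3) in ELA-EpiSC, over a local background of 25.5 and 23 units. The normalized levels were 9.31 (EpiSC) and 11.09 (ELA-EpiSC), a difference of 1.77. This was 18.4 times the spot SD at that level, and 1.26% of all genes lay as high or higher. The other probe gave 32.9 units in EpiSC and 30.2 in ELA-EpiSC over backgrounds of 29 and 26, and passed the scanner's background test on neither array. Bmp4 lies on the minus strand. The detected probe covers chr14:47003391-47003450 and the undetected one chr14:47003198-47003257 (mm9), so that the undetected probe starts 193 bases nearer the 3′ end of the gene. What the transcript annotation says at these positions was not analysed here. The Bmp4 result therefore rests on 1 of 2 probes. The mean of both probes differed by 0.89.

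Bmp2, the closest relative of Bmp4, had nearly the same spot signal on both arrays, 4889 units in EpiSC (SD over pixels 529) and 4892 in ELA-EpiSC (SD 535). After normalization the levels were 12.41 and 12.13. The difference of -0.28 was 2.86 times the spot SD, and 25.2% of all genes lay as low or lower. Its sign rests on the scaling: it was 0.26 where probes for spike-in RNA were set equal, in their mean, on the arrays. Its probe lies at chr2:133388260-133388319 on the plus strand (mm9).

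Bmp7, a ligand that can pair with BMP2 or BMP4 in one dimer, gave 2558 units in EpiSC (SD over pixels 148) and 2231 in ELA-EpiSC (SD 113). Its levels were 11.48 and 11.00, a difference of -0.48, which became 0.06 with spike-in probes set equal. Of all genes, 14.6% lay as low or lower. Bmp2 and Bmp7 were thus inside the range that most genes covered, and neither had a direction that every scaling kept. The Bmp7 probe lies at chr2:172695203-172695262 on the minus strand (mm9).

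Id1, the Id gene most often used to read BMP signalling, was lower in ELA-EpiSC. Its spot signal was 26060 units in EpiSC (SD over pixels 1272) and 6564 in ELA-EpiSC (SD 429.7), over a background of 26 units on both arrays. The levels were 14.70 (EpiSC) and 12.55 (ELA-EpiSC), a difference of -2.15 or 4.43-fold, and 22.2 times the spot SD. Of 16649 genes, 153 (0.919%) lay as low or lower. The probe lies at chr2:152563083-152563142 on the plus strand (mm9).

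Id2, which is also used by neural and blood progenitors to hold back E proteins, gave 10466 units in EpiSC (SD over pixels 465) and 3000.1 in ELA-EpiSC (SD 151). The levels were 13.47 and 11.43, a difference of -2.04 or 4.11-fold, as low as in 0.997% of all genes. Id1 and Id2 were the members of the group whose difference passed 2. Their differences lie about 1 spot SD apart, so their order cannot be read. The Id2 probe lies at chr12:25778904-25778963 on the minus strand (mm9).

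Id3 gave 14613 units in EpiSC (SD over pixels 1481) and 5151 in ELA-EpiSC (SD 408). The levels were 13.93 and 12.20, a difference of -1.74 or 3.33-fold, as low as in 1.39% of all genes. Its probe of 60 bases is placed on a stretch of 175 bases, chr4:135700075-135700249 on the plus strand (mm9), which leaves 115 bases between its ends that the probe does not carry. It was the 1 probe of the 11 with such a gap, the other 10 lying on unbroken stretches.

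Id4, the member of the family most tied to neural and germ-line progenitors, was read near the low end of the counted range. Its spot signal was 240.3 units in EpiSC (SD over pixels 39.6) and 172 in ELA-EpiSC (SD 39.7), over backgrounds of 25 and 26. The levels were 8.22 and 7.57. Its difference of -0.65 did not reach 1, was 6.39 times the spot SD, and was shared or exceeded by 9.27% of all genes. With spike-in probes set equal it was -0.11, about the size of the spot SD. Its probe lies at chr13:48358668-48358727 on the plus strand (mm9).

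All 4 Id genes were lower in ELA-EpiSC, 3 of them past 1, and their summed normalized intensity was 53961 in EpiSC and 13661 in ELA-EpiSC. Id1, Id2 and Id3 have mean levels between 12 and 14. Of the 3426 genes in that range, 2.86% were higher in EpiSC past 1 and 4.12% were higher in ELA-EpiSC. Markers of visceral endoderm and of trophoblast were lower on the same array, and ground-state markers too were lower there by more than 1 in 4 of 8 genes (Nr0b1, Tbx3, Tfcp2l1 and Fgf4). The epiblast, primitive streak and fibroblast lists had more genes higher than lower in ELA-EpiSC past 1, and the neural list as many on each side. The part of any of these cell types in the Id values was not tested.

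Smad6, an intracellular inhibitor that blocks BMP receptors and Smad1 and is itself switched on by BMP, gave 1101 units in EpiSC (SD over pixels 129.6) and 529 in ELA-EpiSC (SD 56.8). The levels were 10.31 and 8.99, a difference of -1.31, as low as in 2.52% of all genes. It was -0.77 with spike-in probes set equal, so this call rests on the scaling while its direction does not. Smad6 thus lay on the side of the Id genes. The probe lies at chr9:63800980-63801039 on the minus strand (mm9).

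Nog codes for noggin, a secreted protein that binds BMP ligands and keeps them from their receptors. It gave 134 units in EpiSC (SD over pixels 21.3) and 263 in ELA-EpiSC (SD 35.1), over backgrounds of 27 and 23. The levels were 7.47 and 8.10. The difference of 0.64 was 6.29 times the spot SD and was reached by 9.68% of all genes. The difference was 1.02 with processed signal and 1.17 with spike-in probes set equal. The probe lies at chr11:89162849-89162908 on the minus strand (mm9).

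Bambi, a receptor-like protein with no kinase that damps signals of the BMP and Activin type, gave 34.8 units in EpiSC and 35.3 in ELA-EpiSC over a background of 27 units on both arrays. It was not well above background, and no difference is given. The values therefore bear on 9 of the 10 genes.

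**Figure D3:**
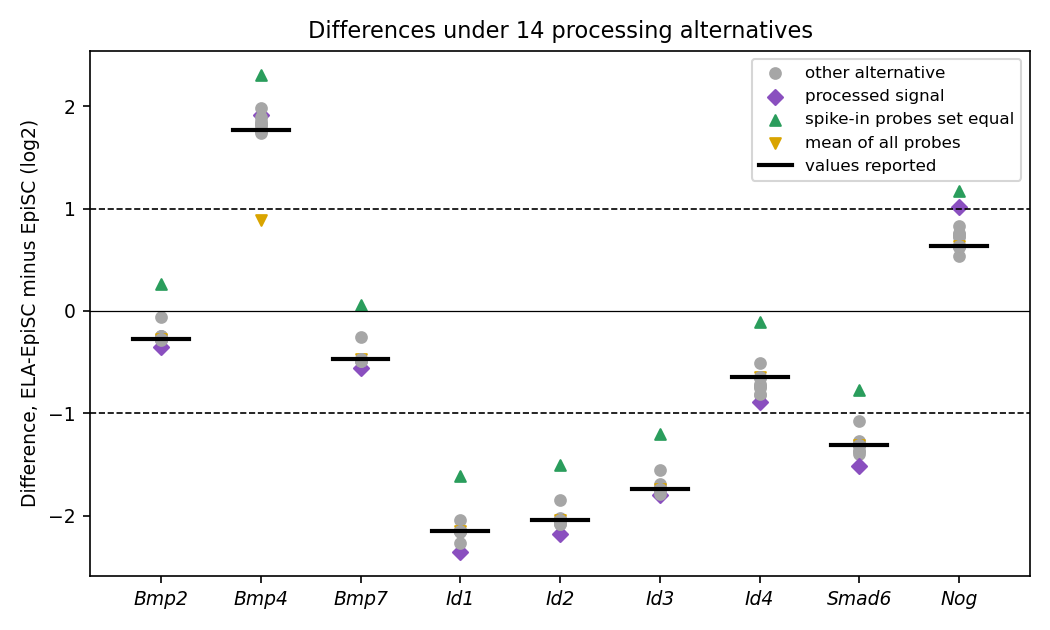
Difference of each countable gene of the group (y axis, log2, ELA-EpiSC minus EpiSC) in the values reported (black bars) and under 14 other ways of processing the same arrays (symbols), with dashed lines at 1 and -1. Id1, Id2 and Id3 stayed below -1 throughout, Bmp4 fell under 1 with the mean of its probes, and Bmp2 and Bmp7 crossed 0 with spike-in probes set equal. Settings of probe summary and detection filter repeat the reported value by construction where a gene has 1 probe.

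The values also depended on how the arrays were scaled. Of 10 probes for spike-in RNA, 8 were detected on both arrays, and their mean difference on the normalized scale was -0.54 (-0.86 to -0.26). The setting named spike-in probes set equal made their mean equal on the arrays, not each probe. By level in EpiSC, the probe differences were -0.33 at 6.77, -0.86 at 11.04, -0.73 at 13.22 and -0.26 at 17.74. A spike-in shift that follows level was not tried. The single shift adds 0.54 to every gene and moves the median of all genes to the same extent. Relative to the bulk of the genes, the positions of the members did not change by this step. Id1 (-1.61), Id2, Id3 (-1.20) and Bmp4 (2.31) kept their direction and stayed past 1 under it. Over the 14 alternatives, Id1 ranged from -2.35 to -1.61, Id3 from -1.80 to -1.20 and Smad6 from -1.52 to -0.77.

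Other genes of the pathway were read from lists of 83 names, of which 52 could be counted. Past 1, ELA-EpiSC was higher for 8 and EpiSC for 7, where 4.54% and 4.46% of all genes passed, and their median difference was 0.14. With spike-in probes set equal the counts were 16 and 4, so the counts past 1 rest on the scaling. That setting moves the median of all genes to 0.54, so the shares just given do not apply to these counts. The shares of all genes past 1 under it were not computed.

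**Figure D4:**
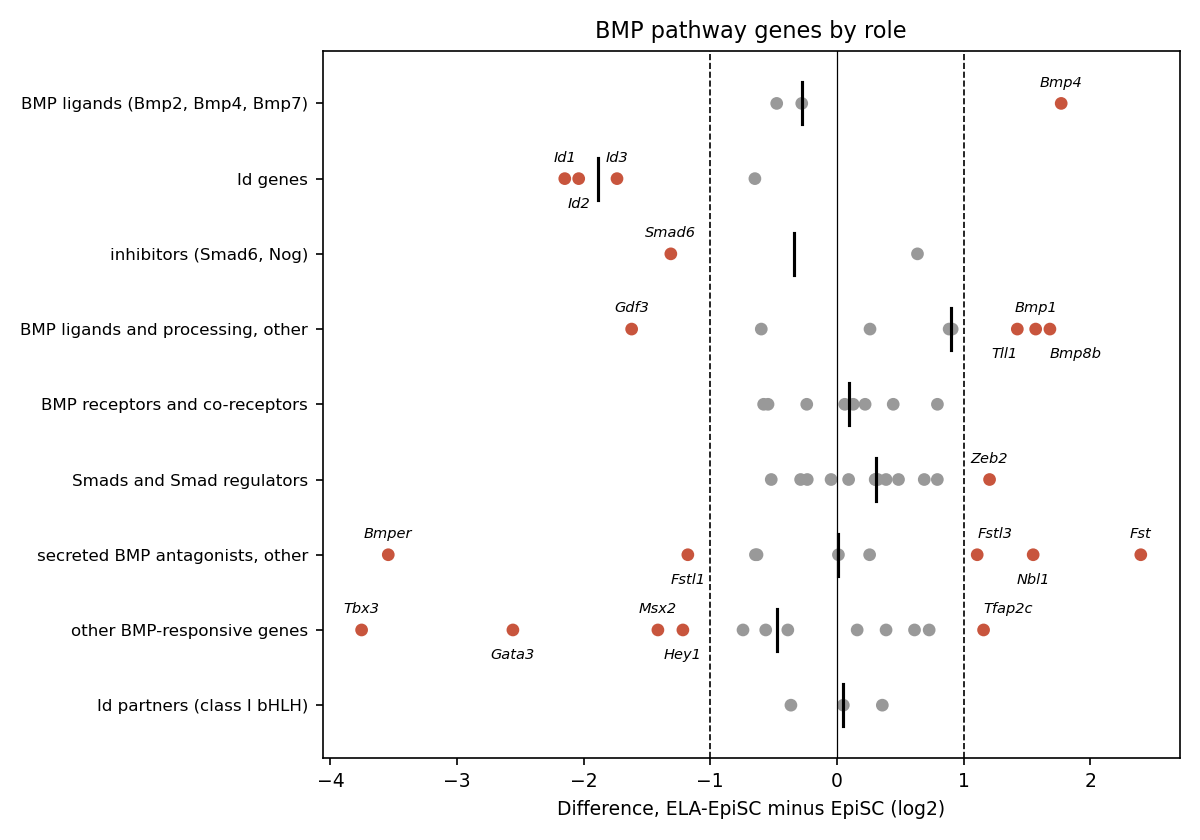
Difference (x axis, log2, ELA-EpiSC minus EpiSC) of each countable gene of the BMP pathway, in rows by role, with a black bar at the median of each row, dashed lines at 1 and -1 and genes past 1 in red and named. In the values reported, receptors and Id partners lie within the dashed lines, while secreted antagonists and other BMP-responsive genes lie on both sides.

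Among other ligands and the enzymes that process them, ELA-EpiSC was higher past 1 for 3 of 8 genes and EpiSC for 1. With spike-in probes set equal these counts were 5 and 1. Bmp8b, a ligand best known in germ cells, differed by 1.68 and reached a level of 8.68 in ELA-EpiSC. Bmp8a, a close copy of it named for that reason after its value was seen, differed by 0.91, and signal shared between such copies cannot be told apart. Bmp1, a protease that cleaves the BMP antagonist chordin, differed by 1.57, with a range of 0.20 to 1.57 over 3 probes. Tll1, a protease of the same family, differed by 1.42 on one probe and by -0.11 on the other. Gdf3, a ligand that can act as a BMP inhibitor, went from 11.15 in EpiSC to 9.53 in ELA-EpiSC, and its second probe gave -0.68. Ligand genes of the family therefore did not lie on one side.

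Of the 8 receptors and co-receptors counted, 0 passed 1, and they ranged from -0.58 to 0.79. With spike-in probes set equal, Rgmb passed it with 1.33 and the sign of Bmpr2 turned (0.30). The type I receptor gene Bmpr1a differed by 0.13, Acvr1 by 0.22 and Acvrl1 by 0.06. The type II receptor gene Bmpr2 differed by -0.24, Acvr2a by 0.44 and Acvr2b by -0.58. The co-receptor gene Rgma differed by -0.54 and Rgmb by 0.79. Bmpr1b was detected but dim, with 6.42 in EpiSC and 6.73 in ELA-EpiSC.

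Of the Smads that carry the signal, Smad1, Smad5 and Smad4 stayed under 1, and Smad9 was too dim to be counted. Smad1, at 10.11 in EpiSC, differed by -0.23. Smad5 gave -0.29 on the brighter probe and 0.30 on the other, so its direction depends on the probe. The signs of Smad1 (0.30) and Smad5 (0.25) turned with spike-in probes set equal. Smad4, the partner shared with the Activin pathway, differed by 0.31. Smad7, an inhibitor like Smad6 that responds to Activin as well as to BMP, had levels of 11.44 (EpiSC) and 11.83 (ELA-EpiSC). Its difference of 0.39 lay on the other side from that of Smad6 (-1.31). Of 13 Smads and Smad regulators counted, Zeb2, a repressor that binds Smads, passed 1, with 1.21 on its brightest probe and 0.37 on another. With spike-in probes set equal, 4 of the 13 passed 1, all higher in ELA-EpiSC.

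Secreted antagonists other than Nog were past 1 in both directions, 3 of 9 higher in ELA-EpiSC and 2 in EpiSC. Fst (follistatin), which binds Activin and some BMPs, had levels of 10.17 (EpiSC) and 12.57 (ELA-EpiSC), a difference of 2.40. Nbl1, a BMP antagonist of the DAN family, differed by 1.55, and Fstl3, a relative of follistatin, by 1.11. Bmper, which binds BMPs outside the cell and can act for or against them, had levels of 11.91 (EpiSC) and 8.37 (ELA-EpiSC), a difference of -3.54. Fstl1 differed by -1.18, and by -0.64 with spike-in probes set equal. Cer1, an antagonist of Nodal and BMP, differed by 0.01, and Chrd (chordin) by 0.26 on one probe and -0.11 on the other. Grem1 was dim, with 6.44 and 6.49.

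Other genes known to respond to BMP in some tissues were lower in ELA-EpiSC past 1 in 4 of 12 cases and higher in 1. Msx2, a homeobox gene, had levels of 9.53 (EpiSC) and 8.11 (ELA-EpiSC). Hey1, a repressor that Notch also switches on, differed by -1.22. With spike-in probes set equal these were -0.88 and -0.68. Gata3 differed by -2.56 and Tbx3 by -3.75, and these genes are also on the lists of trophoblast and ground-state markers given above. Tfap2c differed by 1.16. The median of the 12 was -0.47. With spike-in probes set equal, 3 of the 12 were higher in ELA-EpiSC past 1, among them Msx1 (1.27) and Hes1 (1.15), and 2 were lower. The counts past 1 in this list thus rest on the scaling. That setting moves the median of all genes to 0.54, so the place of the list relative to all genes does not change.

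E proteins, the partners that Id proteins hold, differed less than Id1, Id2 and Id3. Tcf3 had levels of 13.07 (EpiSC) and 12.71 (ELA-EpiSC), a difference of -0.36, and its second probe gave -0.66. With spike-in probes set equal it was 0.17 on the brighter probe. Tcf4 differed by 0.36 and Tcf12 by 0.05. None of these genes reached 1 on any detected probe in the values reported.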

How the data were processed

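RNA of EpiSC and ELA-EpiSC was hybridized to 1 one-colour Agilent SurePrint G3 mouse array each, after 50 ng of pooled RNA had been labelled with Cy3. Linear spot intensity, not yet normalized, was deposited by the authors as scanner output from Feature Extraction (version 10.7.3.1 in the file headers, 9.1 in the submitters' processing notes), with probe positions on mm9. The authors also deposited a log2 table by probe. Per their methods it had background correction (method not stated) and quantile normalization in limma. It was used as an alternative.

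Here background was removed from mean spot signal by normexp (offset 50; limma 3.58.1, R 4.3.3). Control spots and spots flagged as outliers (158 and 117, with 0 among the 11 probes described) were left out, and the arrays were quantile normalized on the log2 scale. Quantile normalization hides any shift shared by all genes. Detection of a probe needed a share of 0.5 or more of its spots to be well above background. A gene took its brightest detected probe, and levels of different probes were not compared. Genes were counted at a mean log2 of at least 7.5. The members, gene lists and tests were chosen with earlier results of these data known. All 10 members were named with every probe. Other pathway genes were named where past 1, together with the receptors, Smad1, Smad4, Smad5, Smad7, Chrd, Cer1, Grem1 and the E proteins. Alternatives changed the background correction, scaling, probe summary, thresholds and minimum level. The steps were also run on data simulated from the EpiSC array, with known folds put into brighter probes only. That run does not bear on genes as dim as Nog or on a shift shared by all genes.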

Additional observations from a re-analysis of the deposited data

How the results depend on the processing

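With 1 array per group there was no error between cultures, and the number of arrays limits the precision of every value. No paired analysis was possible because a single array, with no partner to pair, stood for each group. Over 14 alternatives, Id1, Id2, Id3, Id4, Smad6, Bmp4 and Nog kept their direction, and Bmp2 and Bmp7 kept theirs in 13. Some of these could not move a gene with 1 probe. The mean of all probes, detection on both arrays, and no filter or minimum level repeat its reported value by construction. The median difference of the 9 members was -0.65, and it was -0.82 with normexp at offset 0, -0.76 at offset 16, -0.89 with processed signal, -0.51 with median scaling, -0.11 with spike-in probes set equal and -0.81 with the deposited log2 values. The count of members higher in ELA-EpiSC, 1, became 2 with processed signal, with spike-in probes set equal and at 1.5-fold, and 0 with the mean of all probes and at a difference of 2. That of members higher in EpiSC, 4, became 3 with spike-in probes set equal (without Smad6), 5 at 1.5-fold and 2 at a difference of 2. Pathway genes higher in ELA-EpiSC, 8, became 16 with spike-in probes set equal, 15 at 1.5-fold, 1 at a difference of 2 and 4 with a minimum level of 9. Those higher in EpiSC, 7, became 4, 11 and 3 in the first 3 of these settings. Thresholds and spike-in scaling act by construction. The count of 0 with the mean of all probes came from Bmp4 (0.89), and the count of 2 with processed signal from Nog (1.02). Each median listed here is the value of Id4, the middle member in those settings. Why the values of Id4 and Nog moved between the remaining settings was not tested.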
